A study of Homo sapiens with 6 samples.

Results

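Long noncoding RNAs (lncRNAs) with known links to the p53 response, to nuclear bodies or to DNA damage were followed in AC16 cells treated with doxorubicin. These 10 genes (NEAT1, MALAT1, LINC-PINT, PVT1, PURPL, MIR34AHG, TP53TG1, GAS5, NORAD and MIR22HG) were taken by symbol from a table of 58299 genes, of which 15684 are lncRNA genes in GENCODE release 29. In all, 3 libraries came from cells given 100 nM doxorubicin for 48 h and 3 from cells given 0.1% DMSO, the vehicle, for 48 h. AC16 is a human line made by fusing ventricular heart cells with virus-transformed fibroblasts, and all 6 libraries are from it, with no deletion, transgene or second agent in the labels. Doxorubicin is an anthracycline that traps type II topoisomerases on DNA and so causes strand breaks. RNA was poly(A)-selected and the libraries carry no strand information. Whether the 3 libraries of each treatment are separate cultures is not in the labels, and p-values below therefore reflect library-to-library spread that may be technical.

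The transcription factor p53 is stabilised by DNA damage and switches on genes for cell-cycle arrest, repair and death, among them several lncRNAs. PURPL, MIR34AHG, TP53TG1, LINC-PINT, PVT1 and NEAT1 have all been described as p53-responsive. Other members are known for where they work: NEAT1 is the scaffold of paraspeckles, MALAT1 lies in nuclear speckles, and NORAD, whose name stands for noncoding RNA activated by DNA damage, holds PUMILIO proteins in the cytoplasm. GAS5 and MIR22HG carry small RNAs, small nucleolar RNAs in the introns of GAS5 and a microRNA in an exon of MIR22HG. MALAT1 and the long form of NEAT1 end without a usual poly(A) tail, so poly(A)-selected counts hold only part of their RNA.

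The table had 1 gene ID for 9 members. LINC-PINT had 2 in the annotation: ENSG00000231721, which the gene name table calls LINC-PINT and which stands for it below, and the downstream ENSG00000226380, which is given beside it. Column totals ran from 17252862 to 18665979 counts in doxorubicin and from 17929419 to 19571731 counts in DMSO. Markers were checked against the label: the 8 cardiomyocyte markers reached at most 0.511 CPM in doxorubicin and 0.312 CPM in DMSO. Fibroblast markers differed widely in level. COL1A1, a collagen and the highest, ranged from 2329 to 3713 CPM in doxorubicin and from 9272 to 11007 CPM in DMSO. DCN, the lowest, ranged from 15.3 to 27.1 CPM in doxorubicin and from 12.4 to 23.1 CPM in DMSO. The smooth muscle marker CNN1 ranged from 13.9 to 27.3 CPM in doxorubicin and from 32.6 to 39.4 CPM in DMSO. CPM is a gene's count as a share of its library's total, here with totals scaled by TMM, a method that corrects them for differences in composition.

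A pair of promoter windows is shown because each held a p53 site without a mismatch at a gene that changed strongly. Promoters of RefSeq genes (GRCh38.p14, 250 bases before to 50 bases after the start) were searched for the p53 response element, which is a pair of 10-base p53 decamers up to 13 bases apart. The decamer reads the same on both strands. The search covered 8 of the 10 members, 12 windows in all, and no window of PVT1 or NEAT1 was searched. PURPL was the 1 member of these 8 with a match, in capitals in its window (chr5:27472042-27472341, plus strand):

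PURPL: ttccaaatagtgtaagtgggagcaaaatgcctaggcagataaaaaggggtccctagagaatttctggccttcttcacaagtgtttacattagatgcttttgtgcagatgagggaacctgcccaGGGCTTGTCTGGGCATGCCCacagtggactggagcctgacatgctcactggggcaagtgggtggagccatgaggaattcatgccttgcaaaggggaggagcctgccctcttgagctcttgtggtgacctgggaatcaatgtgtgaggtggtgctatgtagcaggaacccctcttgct

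The second window belongs to LNCTAM34A, a lncRNA that starts 134 bases from MIR34AHG on the other strand and was added after its values were seen (chr1:9181954-9182253, plus strand):

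LNCTAM34A: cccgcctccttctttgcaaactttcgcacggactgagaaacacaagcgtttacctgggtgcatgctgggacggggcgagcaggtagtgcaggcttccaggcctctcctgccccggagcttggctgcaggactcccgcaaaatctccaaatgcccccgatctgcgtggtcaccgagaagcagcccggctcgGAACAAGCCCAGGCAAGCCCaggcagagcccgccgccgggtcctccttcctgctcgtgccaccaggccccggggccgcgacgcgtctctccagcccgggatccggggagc

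Both capitals mark a site of 20 bases with 0 mismatches and 0 bases between the decamers. In PURPL the site begins 127 bases before the start (chr5:27472165-27472184). In LNCTAM34A it begins 60 bases before the start (chr1:9182144-9182163), which is 175 to 194 bases inside MIR34AHG from the RefSeq start of that gene. Such a site with 0 mismatches occurred in 10 of 35116 promoter windows, or 0.028% of them. With up to 3 mismatches a site occurred in 12.8% of windows. None of the windows of MIR34AHG, TP53TG1, LINC-PINT, MALAT1, NORAD, GAS5 and MIR22HG held a match with 3 or fewer mismatches, which says only that these letters are not in those windows. The same holds for CDKN1A, H19 and CROT, genes outside the 10 that rose and are described below. FRMD8, which rose as well, held a site with 3 mismatches.

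Mature microRNAs in exons of MIR34AHG, LINC-PINT and MIR22HG are shown because the host transcript is what the counts measure. The annotation also places microRNA genes within PVT1 and NEAT1, which are not shown. The seed, bases 2 to 8, is in capitals, and each sequence is from RefSeq (GRCh38.p14, minus strand):

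hsa-miR-34a-5p: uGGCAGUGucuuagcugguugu
hsa-miR-29b-3p: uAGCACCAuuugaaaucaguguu
hsa-miR-22-3p: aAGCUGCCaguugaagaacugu

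The first lies in an exon of MIR34AHG (chr1:9151735-9151756), the second in an exon of the LINC-PINT record ENSG00000226380 (chr7:130877467-130877489) and the third in an exon of MIR22HG (chr17:1713914-1713935). The 3 seeds differ. The miR-34a-5p seed is shared with miR-449a and miR-449b-5p, and the miR-29b-3p seed with miR-29a-3p and miR-29c-3p. Mature microRNAs are too short for these libraries, so the values below are those of the hosts.

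NORAD is shown by its PUMILIO motifs, written TGTANATA in DNA letters and searched on the transcript strand. It held 15 of them in 5339 bases, or 2.81 per kb. Below are 3 that differ at the variable base, with the motif in capitals (GRCh38, minus strand, chr20:36050193-36050200, chr20:36049713-36049720 and chr20:36049503-36049510):

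NORAD site 1: ggcctgTGTATATAatatga
NORAD site 3: acatttTGTAAATAcctttt
NORAD site 5: atatagTGTACATAaaggac

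Taking the longest transcript of each of 16054 lncRNA genes, 90.4% held no such motif and 3 genes held more than NORAD. NEAT1 held 6 motifs in 22743 bases, and the other members held 0.

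Of the 10 lncRNAs, 8 rose after doxorubicin and 0 fell, and 5 of the 8 rose at least 2-fold. The rise was steep for PURPL, TP53TG1, MIR34AHG and PVT1, moderate for MALAT1 and shallow for NORAD, GAS5 and NEAT1. MIR22HG and LINC-PINT did not pass the test. All 10 passed the filter on low counts, PURPL through its doxorubicin libraries alone, so that its place among the 8 is no test. Calls rest on edgeR's quasi-likelihood test at a Benjamini-Hochberg adjusted p under 0.05, adjusted over all 15358 tested genes.

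The background was high. Of all tested genes, 32.7% were higher and 32.0% lower, and of 1637 tested lncRNA genes, 30.1% were higher, 13.3% lower and 20.2% higher by at least 2-fold. The doxorubicin values lay wholly above the DMSO values in 8 of the 10 members, against 33.8% of tested lncRNA genes. The median log2 fold change of the 10 was 1.15, against 0.19 for tested lncRNA genes and -0.0013 for all tested genes. Because the 10 genes were chosen by name with results of these data known, these counts describe them and are no test of the group. In bulk RNA, a change in the share of cells that hold a transcript and a change in its amount per cell cannot be told apart.

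**Figure D1:**
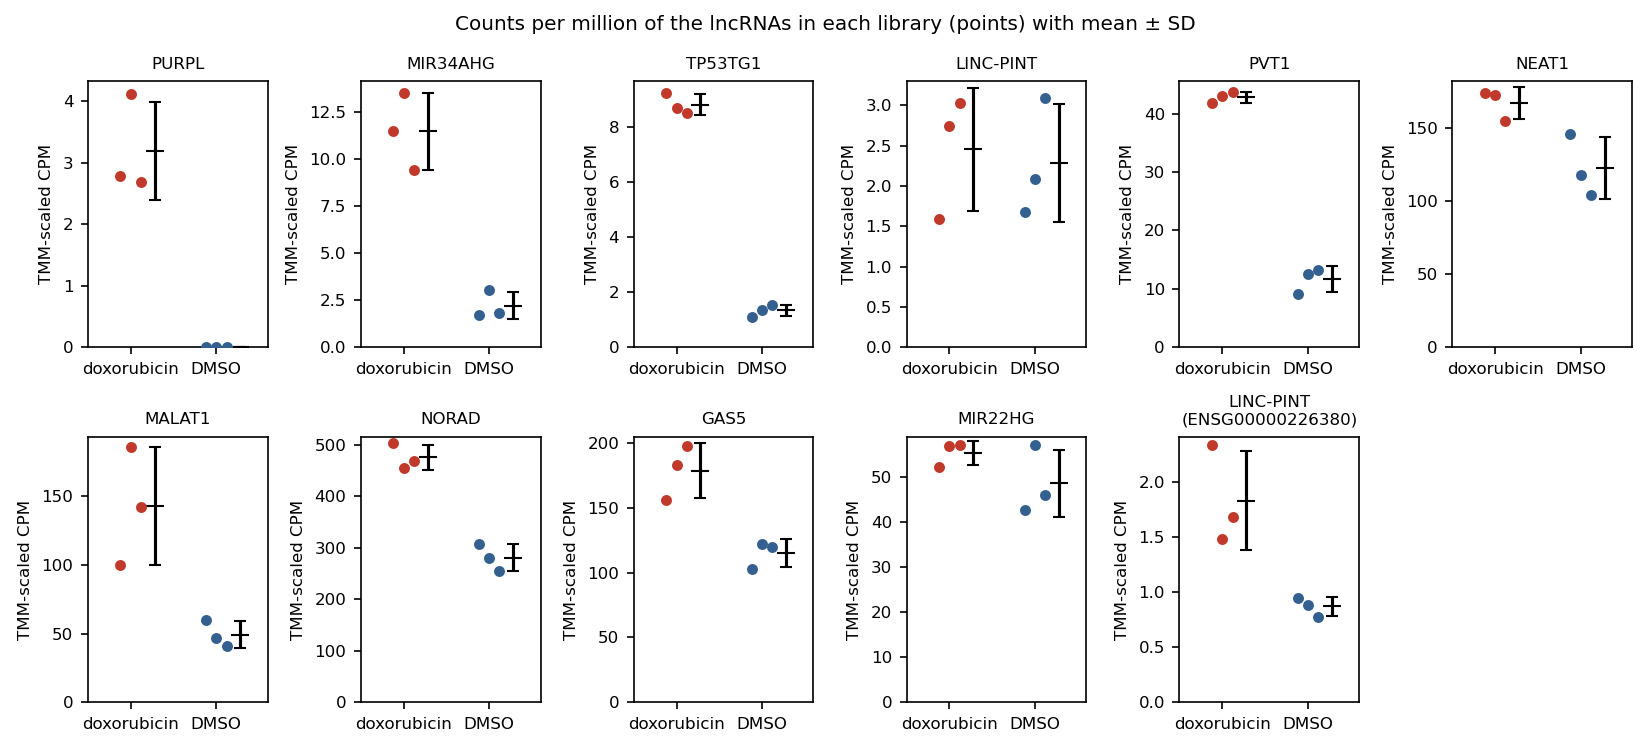
TMM-scaled CPM (vertical axis, from 0) of the 10 lncRNAs and of the second LINC-PINT record, with 1 point per library, doxorubicin in red left of DMSO in blue, and a bar for the mean ± SD of 3 libraries. The groups are apart for 8 of the 10 and overlap for LINC-PINT and MIR22HG.

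**Figure D2:**
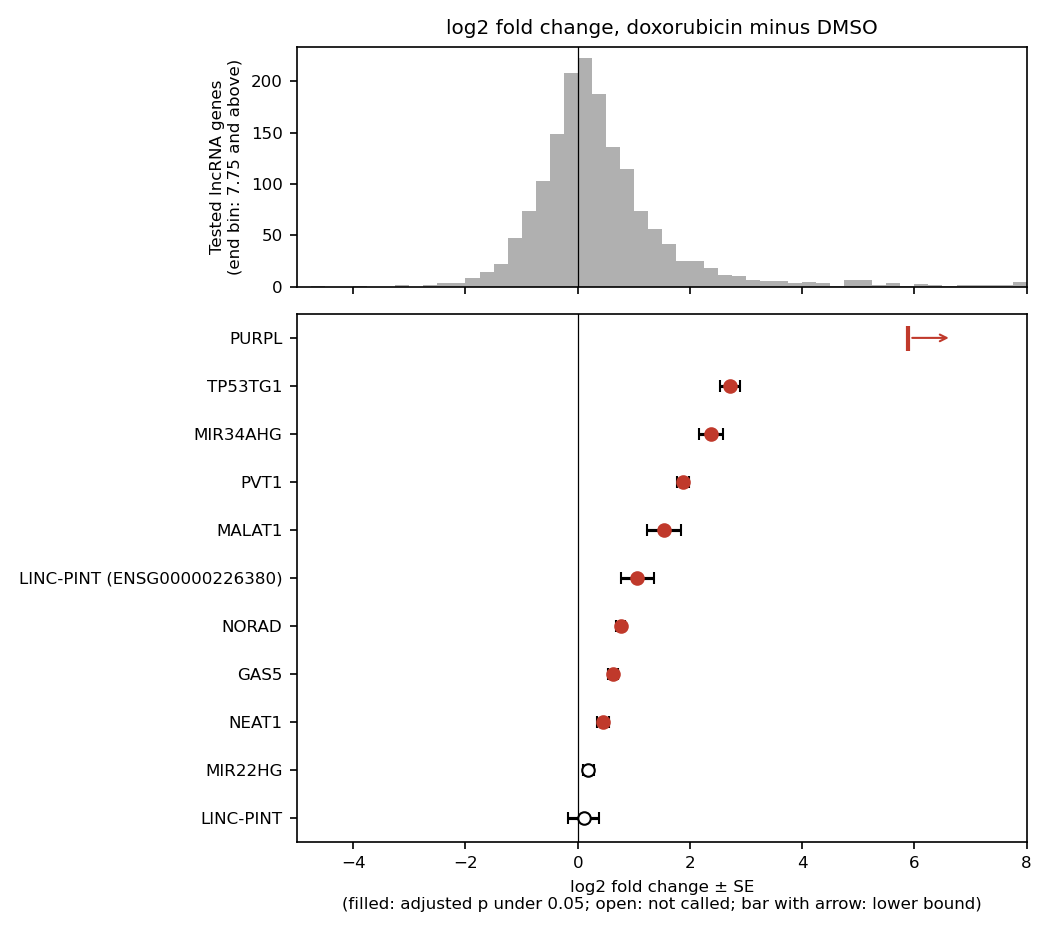
The log2 fold change of doxorubicin minus DMSO (horizontal axis) for 1637 tested lncRNA genes as a histogram, above that of each lncRNA with its SE. PURPL is drawn at its lower bound of 5.89, and LINC-PINT and MIR22HG are the open points near 0.

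The p53-induced members come first. PURPL (ENSG00000250337, chr5:27472292-27496401, GRCh38, plus strand) is a lncRNA that p53 induces and that has been reported to lower basal p53 levels. It had 49, 78 and 48 counts in doxorubicin replicates 1 to 3, which is 2.78, 4.12 and 2.69 CPM, and 0 counts in each of the 3 DMSO libraries. PURPL was thus read in every doxorubicin library and in no DMSO library. Taking 3 counts over the whole DMSO group (0.0543 CPM) as the floor, PURPL was at least 59.2-fold higher. Having passed the filter through its doxorubicin libraries alone, it had to differ, and no p is given. The promoter site printed above lies 127 bases before its start.

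MIR34AHG (ENSG00000228526, chr1:9148011-9198906, minus strand) is the host transcript of miR-34a, a microRNA that p53 induces and that represses cell-cycle genes. It had 11.5, 13.5 and 9.40 CPM in doxorubicin, against 1.73, 3.02 and 1.82 CPM in DMSO. The lowest doxorubicin library was above the highest DMSO library by over 3-fold. MIR34AHG rose 5.19-fold, with a log2 fold change of 2.38 ± 0.21 (SE; adjusted p = 6.4e-08, edgeR). LNCTAM34A, which overlaps it on the opposite strand, had 50, 41 and 35 counts in doxorubicin, against 0, 3 and 0 counts in DMSO, a ratio of 42.6 with an exact 95% counting interval of 14.2 to 209. LNCTAM34A was added after its values were seen and passed the filter on low counts through its doxorubicin libraries alone, so this ratio is no test. Exon bases of LNCTAM34A overlap 431 bases of MIR34AHG exons on the opposite strand, and the libraries cannot assign reads there to a strand. LNCTAM34A had 129 counts over the 6 libraries and MIR34AHG 748.

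TP53TG1 (ENSG00000182165, chr7:87325225-87345515, minus strand) was found as a transcript induced by p53. It had 9.26, 8.71 and 8.51 CPM in doxorubicin, against 1.12, 1.35 and 1.55 CPM in DMSO. The doxorubicin libraries lay close together, with a coefficient of variation of 4.43%, and far from the DMSO libraries. TP53TG1 rose 6.56-fold, with a log2 fold change of 2.71 ± 0.18 (SE; adjusted p = 2.1e-09, edgeR). Of its exon bases, 32.6% lie in genes on the opposite strand, each of which had 0 counts.

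PVT1 (ENSG00000249859, chr8:127794533-128101253, plus strand) lies beside the oncogene MYC, and an isoform of it is induced by p53 in mouse cells. It had 41.8, 43.0 and 43.6 CPM in doxorubicin, against 9.05, 12.6 and 13.3 CPM in DMSO. The doxorubicin libraries were the tightest of any member, with a coefficient of variation of 2.23%. PVT1 rose 3.67-fold, with a log2 fold change of 1.88 ± 0.11 (SE; adjusted p = 6.3e-10, edgeR). The counts are per gene and do not separate its isoforms.

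LINC-PINT, a p53-induced RNA that binds the Polycomb complex, gave different results in its 2 records. The upstream one (ENSG00000231721, chr7:130938963-131110176, minus strand) had 1.59, 2.74 and 3.02 CPM in doxorubicin, against 1.68, 2.08 and 3.09 CPM in DMSO. These groups overlapped fully. Its log2 fold change was 0.11 ± 0.28 (SE; adjusted p = 0.76, edgeR), which turned to -0.08 without DMSO replicate 1 and to -0.06 without doxorubicin replicate 3. The downstream record (ENSG00000226380, chr7:130876809-130913310), which contains miR-29b, had 41, 28 and 30 counts in doxorubicin, against 17, 17 and 14 counts in DMSO. All its doxorubicin libraries were above its DMSO libraries, and it rose 2.09-fold (log2 fold change 1.06 ± 0.30 SE, adjusted p = 0.0050, edgeR). With the counts of both records summed, the log2 fold change was 0.44 and the adjusted p 0.056.

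Both LINC-PINT records rest on few counts, 260 and 147 over the 6 libraries. Of the exon bases of the first, 8.64% lie in genes on the opposite strand. These include MKLN1, which had 6700 counts over the 6 libraries, and the libraries cannot assign reads there to a strand. The lncRNA gene AC016831.6, named here after its values were seen, overlaps 1958 exon bases of the first and 2010 of the second on the same strand. It averaged 2.89 ± 0.570 CPM in doxorubicin and 0.994 ± 0.0863 CPM in DMSO (SD, n = 3 each), and rose as well (log2 fold change 1.53, adjusted p = 6.5e-05, edgeR). The sources used here do not give how the authors' counting treated reads in shared exons.

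The nuclear members follow. NEAT1 (ENSG00000245532, chr11:65422774-65445540, plus strand) had 174, 172 and 154 CPM in doxorubicin, against 146, 117 and 104 CPM in DMSO. The groups were apart by a narrow margin, since the lowest doxorubicin library was only slightly above DMSO replicate 1. NEAT1 rose 1.36-fold, with a log2 fold change of 0.45 ± 0.11 (SE; adjusted p = 0.0038, edgeR). It kept its call with each library left out, at log2 fold changes of 0.34 to 0.58.

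MALAT1 (ENSG00000251562, chr11:65497688-65506516, plus strand), downstream of NEAT1 on the same strand, had 99.9, 186 and 142 CPM in doxorubicin, against 60.1, 46.6 and 41.0 CPM in DMSO. It was higher in every doxorubicin library, but these differed widely among themselves, with a coefficient of variation of 30.1%. Doxorubicin replicate 1 was the lowest for MALAT1 and the highest for NEAT1. MALAT1 rose 2.90-fold, with a log2 fold change of 1.54 ± 0.30 (SE; adjusted p = 0.0085, edgeR) that ran from 1.30 to 1.74 with 1 library left out. With the replicate numbers as a block in the fit, MALAT1 was not called (1.51, adjusted p = 0.058, edgeR).

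Most paraspeckle protein genes fell, whereas NEAT1 rose. Of 18 genes for proteins found in paraspeckles, 14 fell, 1 rose and 3 were not called, and the median log2 fold change was -0.39. Over all tested genes, 32.0% were lower and 32.7% higher. HNRNPH3, a splicing regulator, averaged 108 ± 6.21 CPM in doxorubicin and 190.3 ± 9.33 CPM in DMSO (SD, n = 3 each), a log2 fold change of -0.82 (adjusted p = 1.6e-08, edgeR). The core proteins SFPQ and NONO, which bind NEAT1 directly and are named here after their values were seen, had log2 fold changes of -0.79 and -0.46. ZC3H6, a zinc-finger protein, was the member that rose, by 0.83.

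Genes of nuclear speckles, the bodies that hold MALAT1 and splicing factors, were read beside MALAT1. Of 20 genes, 11 fell, 1 rose and 8 were not called, and the list's median was -0.26 on the log2 scale. The shares over all tested genes were 32.0% lower and 32.7% higher. SRSF2 averaged 67.3 ± 6.35 CPM in doxorubicin and 192 ± 3.14 CPM in DMSO (SD, n = 3 each), a log2 fold change of -1.51 (adjusted p = 2.5e-11, edgeR). SRSF3, another SR splicing factor, had a log2 fold change of -1.07. CLK4, a kinase that phosphorylates SR proteins, was the 1 that rose, by 0.41 (adjusted p = 0.016), and was not called without DMSO replicate 1 or without doxorubicin replicate 2.

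Other well-known nuclear lncRNAs moved both ways. Of 10 listed, 7 were tested: HOTAIR rose and CDKN2B-AS1, JPX and FTX fell. The shares over all tested lncRNA genes were 30.1% higher and 13.3% lower. HOTAIR, transcribed from a homeobox cluster, averaged 1.39 ± 0.263 CPM in doxorubicin and 0.635 ± 0.198 CPM in DMSO (log2 fold change 1.13, adjusted p = 0.0076, edgeR; SD, n = 3 each), and DESeq2 did not call it. JPX, from the X-inactivation centre, averaged 1.52 ± 0.444 CPM in doxorubicin and 3.40 ± 0.424 CPM in DMSO (log2 fold change -1.17). FTX, from the same region, had a log2 fold change of -0.52, and CDKN2B-AS1, antisense to a cell-cycle inhibitor gene, had -1.51.

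NORAD (ENSG00000260032, chr20:36045622-36050960, minus strand) was the most abundant of the 10 in both groups by these poly(A)-selected counts. They hold only part of the RNA of MALAT1 and of long NEAT1. NORAD had 504, 456 and 470 CPM in doxorubicin, against 307, 281 and 255 CPM in DMSO. The groups were well apart in spite of a modest fold. It rose 1.70-fold, with a log2 fold change of 0.76 ± 0.07 (SE; adjusted p = 1.2e-07, edgeR). Genes of 3 proteins known to bind NORAD fell. The log2 fold change of PUM2, a PUMILIO protein that binds the motifs above, was -0.33 (adjusted p = 1.8e-04, edgeR), that of KHDRBS1 was -0.80, and that of RBMX was -1.16 (adjusted p = 6.2e-11).

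The small-RNA hosts came next. GAS5 (ENSG00000234741, chr1:173863900-173868882, minus strand), growth arrest specific 5, carries small nucleolar RNAs in its introns, and its spliced RNA is known to be removed by nonsense-mediated decay. It had 155, 183 and 197 CPM in doxorubicin, against 102, 122 and 120 CPM in DMSO. Every doxorubicin library was above every DMSO library. GAS5 rose 1.55-fold (log2 fold change 0.64 ± 0.09 SE, adjusted p = 2.8e-05, edgeR).

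Other noncoding hosts of small nucleolar RNAs split. Of 24, 23 were tested, and 8 rose, 5 fell and 10 were not called, the median log2 fold change being 0.04. Among all tested lncRNA genes, 30.1% were higher and 13.3% lower. SNHG32 averaged 233 ± 19.5 CPM in doxorubicin and 97.7 ± 12.1 CPM in DMSO (SD, n = 3 each), a log2 fold change of 1.25 (adjusted p = 1.7e-08, edgeR), and ZFAS1 rose by 1.13. In the other direction SNHG3 averaged 40.9 ± 6.91 CPM in doxorubicin and 82.9 ± 10.96 CPM in DMSO, a log2 fold change of -1.02 (adjusted p = 7.0e-05), and SNHG4 averaged 3.73 ± 0.367 CPM in doxorubicin and 7.46 ± 0.392 CPM in DMSO (adjusted p = 3.0e-05). SNHG1, SNHG14 and DANCR, named after their values were seen, also fell. Genes of nonsense-mediated decay moved both ways too: of 14, 5 rose (SMG6, UPF1, SMG9, UPF3B and UPF3A) and 4 fell (RBM8A, SMG8, MAGOH and CASC3), close to the background of 32.7% higher and 32.0% lower over all tested genes. SMG6, the endonuclease of the pathway, rose by 0.82 on the log2 scale and UPF1, its helicase, by 0.48, while RBM8A, a subunit of the exon junction complex, had -0.42 and SMG8 had -0.39.

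MIR22HG (ENSG00000186594, chr17:1711493-1717174, minus strand), the host of miR-22, had 52.2, 56.7 and 57.0 CPM in doxorubicin, against 42.7, 56.9 and 46.0 CPM in DMSO. DMSO replicate 2 lay among the doxorubicin libraries, so the groups overlapped. Its log2 fold change, 0.19 ± 0.09 (SE; adjusted p = 0.096, edgeR), equalled the median of the 1637 tested lncRNA genes. Without DMSO replicate 2 it was 0.31 and the gene was called (adjusted p = 0.0071). It was also called with library totals only, at 0.23 (adjusted p = 0.040).

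Noncoding microRNA hosts outside the 10 were mostly lower or not called. Of 20, 13 were tested, and 1 rose, 5 fell and 7 were not called, and the list's median was -0.42 on the log2 scale. Among all tested lncRNA genes, 30.1% were higher and 13.3% lower. MIR503HG averaged 2.53 ± 0.442 CPM in doxorubicin and 9.21 ± 0.573 CPM in DMSO (SD, n = 3 each), a log2 fold change of -1.86 (adjusted p = 6.7e-08, edgeR). Among the others that fell, MIR23AHG had -0.44 and, named after their values were seen, MIR17HG had -2.16, MIR193BHG -0.82 and MIR4435-2HG -0.42 on the log2 scale. MIR23AHG and MIR193BHG overlapped between the groups. MIR137HG was the 1 that rose, by 0.99. DESeq2 called 3 of the hosts lower in place of 5.

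Further lncRNAs linked to p53 were read in the same fit. Of 8 listed, 7 were in the table and 4 were tested, and PINCR, H19 and MEG3 were higher, against 30.1% of all tested lncRNA genes. PINCR and H19 passed the filter on low counts through their doxorubicin libraries alone, so their calls are no test. PINCR, named as a p53-induced RNA, had 199, 248 and 202 counts in doxorubicin, against 1, 0 and 0 counts in DMSO, a ratio of 658 with an exact 95% counting interval of 118 to 26043. H19, an imprinted lncRNA of fetal tissue, had 1260, 805 and 813 counts in doxorubicin, against 1, 1 and 0 counts in DMSO, a ratio of 1460 (interval 404 to 12059). Both were thus near 0 in DMSO, as PURPL was, and read in all doxorubicin libraries. MEG3, another imprinted lncRNA, averaged 242 ± 50.1 CPM in doxorubicin and 109 ± 11.9 CPM in DMSO (log2 fold change 1.16, adjusted p = 5.4e-04, edgeR; SD, n = 3 each). TUG1 averaged 179.7 ± 11.6 CPM in doxorubicin and 169.5 ± 7.99 CPM in DMSO and was not called (adjusted p = 0.28). DINOL, a p53-induced lncRNA beside CDKN1A, was too low to test, with 9, 5 and 7 counts in doxorubicin, against 0, 1 and 0 counts in DMSO. DESeq2 and the fit with no filter, which both tested more genes, called 4 of the listed lncRNAs higher.

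Genes of the p53 loop give the scale of the response. CDKN1A, the cell-cycle inhibitor p21, MDM2, the ligase that degrades p53, and PPM1D, a phosphatase that dampens the response, rose by 5.16, 4.07 and 2.36 on the log2 scale (edgeR). PPM1D averaged 122 ± 6.80 CPM in doxorubicin and 23.7 ± 0.784 CPM in DMSO (SD, n = 3 each). MDM4, a partner of MDM2, had -0.35 (adjusted p = 0.015), and was not called without DMSO replicate 1 or without doxorubicin replicate 1.

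Levels were compared between the lncRNAs per length, as TPM (counts divided by exon length and then by the library's sum of such values). In doxorubicin the order was NORAD (394 ± 21.0 TPM), GAS5 (217 ± 24.1), MIR22HG (81.8 ± 3.89), MALAT1 (71.5 ± 22.1), TP53TG1 (38.1 ± 2.02), PVT1 (34.4 ± 0.646), NEAT1 (32.4 ± 2.57), MIR34AHG (5.83 ± 1.13) and PURPL (5.36 ± 1.41), each in TPM with SD and n = 3. LINC-PINT was last, at 0.782, 1.36 and 1.45 TPM. The ranges overlapped for MIR22HG and MALAT1, for PVT1 and NEAT1, and for MIR34AHG and PURPL, so these neighbours in the order are not separated. In DMSO the order was NORAD (227 ± 25.6 TPM), GAS5 (136 ± 10.6), MIR22HG (70.0 ± 10.2), MALAT1 (24.1 ± 5.31), NEAT1 (23.2 ± 4.47), PVT1 (9.11 ± 1.61), TP53TG1 (5.63 ± 0.799), LINC-PINT (1.09 ± 0.328), MIR34AHG (1.08 ± 0.350) and PURPL at 0. There the ranges overlapped for MALAT1 and NEAT1 and for LINC-PINT and MIR34AHG. TP53TG1 and PVT1, below NEAT1 in DMSO, were at or above its level in doxorubicin. NEAT1 is divided by the 22767 bases of its long form, which poly(A) selection captures poorly, so its level per length is a low estimate. MALAT1 ends without a usual poly(A) tail, so its level is a low estimate as well.

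**Figure D3:**
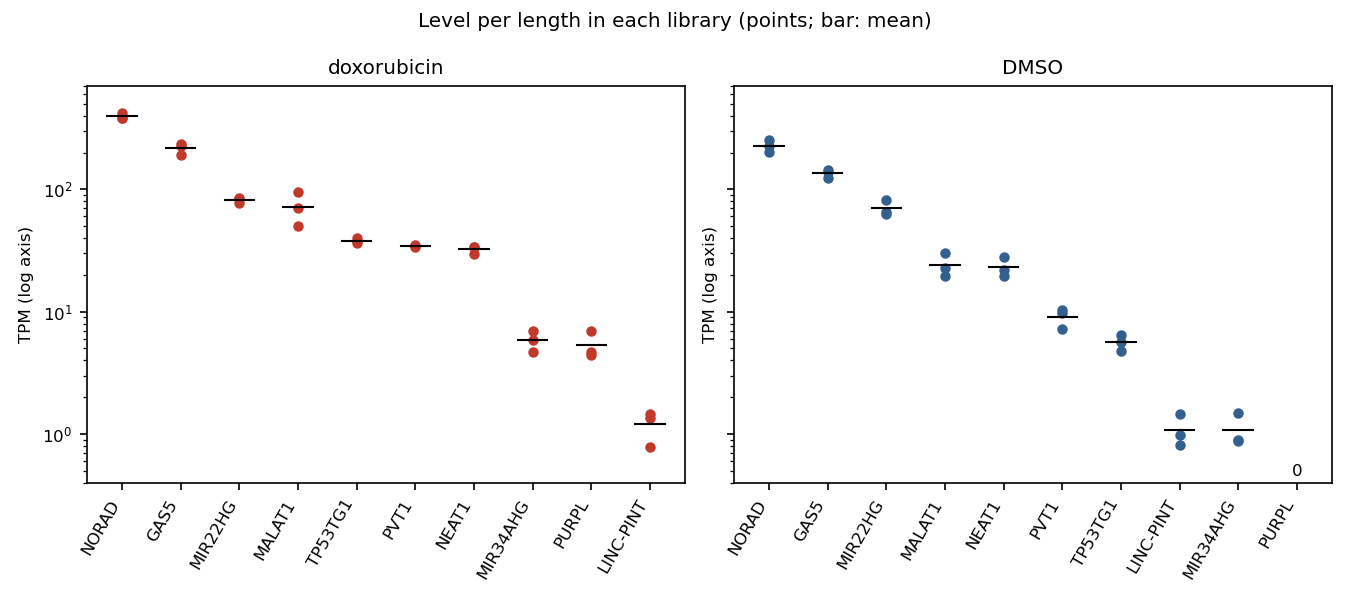
TPM (log axis) of the 10 lncRNAs in each library as points with the mean as a bar, ordered by mean level within doxorubicin (left) and within DMSO (right). PURPL, at 5.36 TPM in doxorubicin, is at 0 in DMSO, and TP53TG1 and PVT1 stand beside NEAT1 only on the left.

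Genes near the lncRNAs were read next, to see whether a change at a lncRNA was shared by its neighbourhood. Of 93 gene IDs within 100 kb of a member, 40 were tested, and 18 rose and 9 fell, their median being 0.23 on the log2 scale, against 32.7% higher and 32.0% lower over all tested genes. The nearest tested protein-coding gene is given for 8 members, and PURPL had none.

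TP53TG1 and its neighbour rose together. CROT, a peroxisomal acyltransferase gene whose RefSeq start lies 172 bases from that of TP53TG1 on the other strand, averaged 27.1 ± 0.315 CPM in doxorubicin and 13.8 ± 1.30 CPM in DMSO (SD, n = 3 each), a log2 fold change of 0.97 (adjusted p = 1.8e-07, edgeR). FRMD8, 9249 bases from NEAT1 and on the same strand, averaged 495 ± 77.3 CPM in doxorubicin and 81.7 ± 4.54 CPM in DMSO, a log2 fold change of 2.60 (adjusted p = 2.7e-10) beside 0.45 for NEAT1. FRMD8 encodes a protein that binds and stabilises iRhoms, which are rhomboid-like proteins without protease activity. WDR81, which overlaps MIR22HG on the other strand, rose by 0.73 on the log2 scale (adjusted p = 9.6e-07).

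Other pairs went apart. MYC, 53099 bases from PVT1, averaged 61.4 ± 2.81 CPM in doxorubicin and 93.3 ± 16.4 CPM in DMSO (SD, n = 3 each), a log2 fold change of -0.60 (adjusted p = 4.4e-04, edgeR) beside 1.88 for PVT1. EPB41L1, 40544 bases from NORAD, had -0.31 (adjusted p = 0.0015) beside 0.76 for NORAD. GPR157 near MIR34AHG (-0.18, adjusted p = 0.15), MKLN1 across from LINC-PINT (0.11, adjusted p = 0.27) and ZBTB37 across from GAS5 (-0.22, adjusted p = 0.10) were not called.

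**Figure D4:**
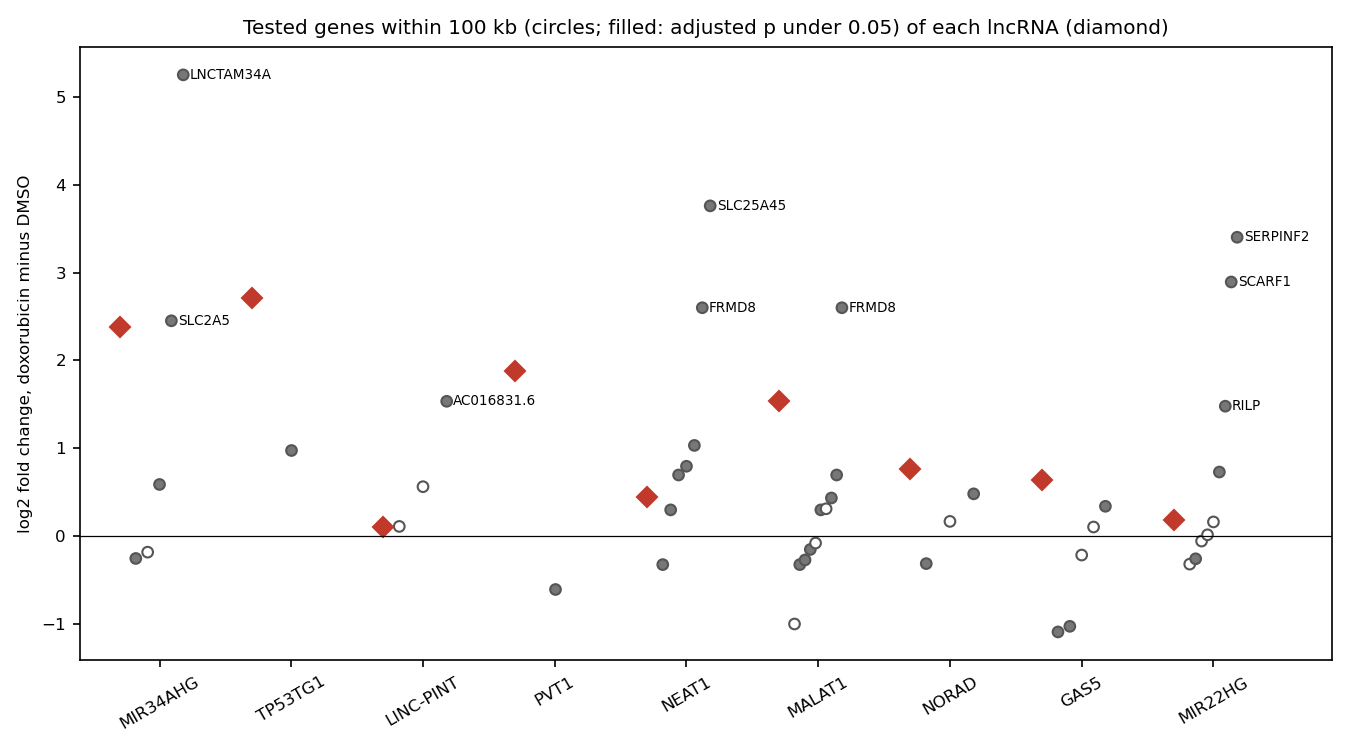
The log2 fold change of doxorubicin minus DMSO (vertical axis) for tested genes within 100 kb of each lncRNA (circles, filled where called) and for the lncRNA itself (red diamond). FRMD8 is at 2.60 near NEAT1, and MYC at -0.60 lies opposite PVT1 at 1.88.

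For each member, the lncRNA with the most similar profile was the one with the smallest root mean square difference of centred log2 CPM over the 6 libraries. It was TYMSOS for TP53TG1 (0.16), LINC02056 for PVT1 (0.13), LINC02987 for NORAD (0.07) and LINC00839 for MIR22HG (0.05). For MIR34AHG, NEAT1, MALAT1, GAS5, LINC-PINT and PURPL it was a gene with an Ensembl ID but no symbol, at differences of 0.09, 0.08, 0.15, 0.09, 0.15 and 0.40. With 2 treatments this measure mostly reflects the size of the treatment difference. TYMSOS averaged 10.1 CPM in doxorubicin and 1.70 CPM in DMSO, near the 8.82 and 1.34 CPM of TP53TG1.

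**Figure D5:**
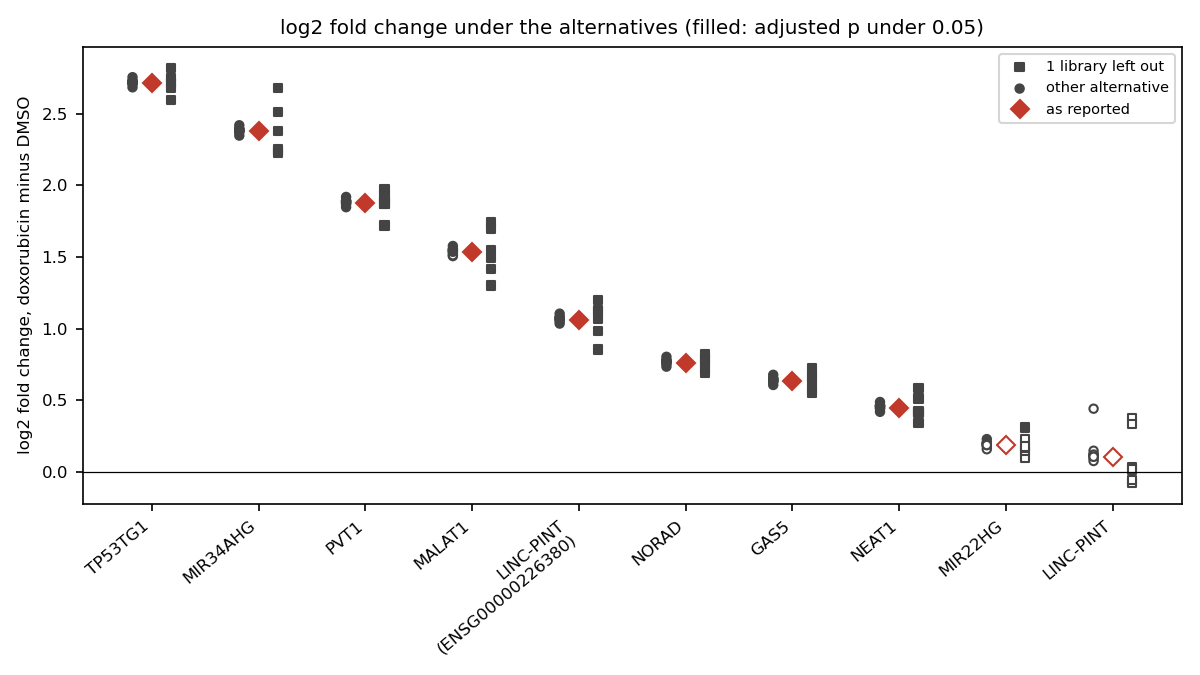
The log2 fold change of doxorubicin minus DMSO (vertical axis) of each lncRNA but PURPL as reported (red diamond), with 1 library left out (squares) and under the other alternatives except glmTreat (circles), filled where the adjusted p was under 0.05. MIR22HG changes its call with the library or scaling, MALAT1 has an open circle among its other alternatives, and LINC-PINT crosses 0.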

How the data were processed

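Whole-number counts per gene, with each gene's exons and their summed length, stand in the deposited table, which has featureCounts columns (per the file headers). Build GRCh38 and the tools STAR, Subread (featureCounts) and SAMtools are named in the submitters' processing notes, with no role or setting. The libraries were unstranded and poly(A)-selected, per the labels' protocols. Symbols came from a gene name table (57717 of 58299 IDs) and gene types from GENCODE release 29. Columns of other samples numbered 0.

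All 6 libraries entered one edgeR fit (version 4.0.16, R 4.3.3) after filterByExpr, with a count minimum of 10 and a total of at least 15. It used TMM scaling, the robust quasi-likelihood fit and its F test, which is two-sided, adjusted over 15358 genes. Each SE is the fold change on the log2 scale over the root of F. The procedure was tested on simulated data. Counting intervals are exact (95%) and, like the floor of 3 counts, cover counting error only. Chi-square per degree of freedom between libraries of a group was 2.82 to 9.39, so each was counted once.

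The members and gene lists were chosen with earlier results of these data known. Named are all members, list members that were called (all if 4 or fewer, otherwise the 2 with the largest change in each direction at a mean log2 CPM of at least 1), the nearest tested protein-coding gene and the most similar lncRNA. Alternatives were DESeq2 1.42.0, scaling by upper quartile, RLE or library totals, no filter, at least 1 CPM in 3 libraries, a replicate block, each library left out, a fit without the 50 genes of highest level, glmTreat at 2-fold, RPKM levels and, added after seeing the data, the LINC-PINT records summed. Some genes that this rule names are not reported here.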

Additional observations from a re-analysis of the deposited data

How the results depend on the processing

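Of 611 recomputed values over 17 alternatives, 571 kept their direction and side of the threshold, or a count within 1.5 times. MIR34AHG, TP53TG1 and PVT1 were called under every alternative run, including glmTreat against 2-fold. Over all tested genes, the same-numbered libraries showed no clear shared deviation (r = 0.05, -0.03 and 0.05). With 3 libraries per group, this does not exclude that the numbers pair the samples. With the replicate block 8 of the 10 members were again higher, with MIR22HG called (0.19, adjusted p = 0.045) and MALAT1 not (1.51, adjusted p = 0.058). LINC-PINT ran from -0.077 to 0.377 on the log2 scale with 1 library left out, below 0 without DMSO replicate 1 (-0.077) and without doxorubicin replicate 3 (-0.058), and its adjusted p was never under 0.05. With 1 library left out, members called higher ran from 8 to 9, speckle genes called higher from 0 to 1 and p53 loop genes called lower from 0 to 1.

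With no filter, 811 lncRNA genes were called higher, since more were tested. DESeq2 called 3 microRNA hosts lower and 0 other nuclear lncRNAs higher, and the cause was not tested. By construction, glmTreat against 2-fold called fewer: 4 members higher, 1464 genes higher and 430 lower, 176 lncRNA genes higher and 23 lower, 7 neighbouring genes higher and 0 lower, 1 snoRNA host higher and 0 lower, 0 microRNA hosts higher and 2 lower, and 0 higher with 1 lower among paraspeckle, speckle and NORAD-binding genes alike. It called 0 genes of nonsense-mediated decay and 0 other nuclear lncRNAs in either direction, and 0 p53 loop genes lower. At this depth LINC-PINT, PURPL and DINOL rest on few counts, and a gene at 0 in DMSO could be present at up to 0.0543 CPM.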

Other observations

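Transcripts of lncRNA genes took a larger share of the counts after doxorubicin. They held 0.812%, 0.879% and 0.815% of the counts in doxorubicin replicates 1 to 3, against 0.654%, 0.653% and 0.639% in DMSO replicates 1 to 3. The 10 lncRNAs together held 0.107%, 0.114% and 0.109% in doxorubicin, against 0.0670%, 0.0631% and 0.0571% in DMSO. LncRNA genes with at least 10 counts numbered 1595, 1826 and 1638 in doxorubicin, against 1442, 1530 and 1466 in DMSO. NORAD made up 43.8% of the counts of the 10 in doxorubicin and 44.3% in DMSO, while NEAT1 made up 15.4% in doxorubicin and 19.3% in DMSO. SLC25A45, a mitochondrial carrier gene 39073 bases from NEAT1 and named after its values were seen, averaged 13.1 ± 1.30 CPM in doxorubicin and 0.958 ± 0.0756 CPM in DMSO (SD, n = 3 each), the highest log2 fold change among tested genes near NEAT1 (3.76, adjusted p = 3.0e-11, edgeR).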
